A study of Homo sapiens with 10 samples.

Results

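LINC loci are genes that carry the placeholder name LINC and a number, given to long intergenic non-coding RNAs (lincRNAs) before a function is known. They were taken from the authors' deposited table as loci whose only symbol starts with LINC followed by digits or a hyphen. Of 241080 loci in the table, 533 met this rule, and 88 of them had been tested by the authors. The table comes from nuclei of HEK293 cells, one established adherent line derived from human embryonic kidney, split into a chromatin pellet extract (CPE, 3 samples) and a soluble nuclear extract (SNE, 3 samples). All of these samples are described as biological replicates and no treatment is labelled for them. A further 2 CPE samples with DRB, an inhibitor of transcription elongation, and 2 mock-treated CPE samples were not analysed here. The RNA was sequenced as stranded total RNA.

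A lincRNA gene is transcribed by RNA polymerase II outside protein-coding genes, and its RNA is usually capped, spliced and polyadenylated. Some lincRNAs stay at chromatin near the site where they are made, and others leave the nucleus and act in the cytoplasm. Several RNAs first filed as LINC were later found to encode short proteins, called microproteins, and have been renamed.

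Each value below is the authors' single FPKM (sequenced fragments scaled by the length of the transcript and the size of the library) for a group, so no spread between replicates can be given. A locus is called where the authors' q, the p-value adjusted over their table, is at most 0.05. The ratio is the deposited log2 of CPE over SNE, so a positive value means a higher level in CPE. FPKM is a share of each library, and how much RNA each fraction held is not stated in the labels, so a ratio compares shares and not molecules per nucleus. NEAT1, an RNA that builds nuclear paraspeckles, had an FPKM of 44.6 in CPE and 4.11 in SNE in the authors' deposited table, while RPPH1, the RNA of ribonuclease P, had 1583 in CPE and 4568 in SNE.

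LINC loci were found on both sides. The authors' deposited table called 26 of the 88 tested loci: 7 had more in CPE and 19 had more in SNE, which leaves 62 without a call. That is 7.95% towards CPE and 21.6% towards SNE. Over all 192931 tested loci 13.0% were called, 8.73% towards CPE and 4.30% towards SNE. Over the 16699 tested loci with 1 symbol 40.8% were called, 1.71% towards CPE and 39.1% towards SNE. Loci without a symbol had 10.1% called, 9.45% towards CPE and 0.630% towards SNE. The median ratio of the LINC loci was -0.14 (interquartile range -1.36 to 1.11), with 42 loci above 0 and 46 below. It was 3.05 over all tested loci, most of which carry no symbol, and -1.25 over loci with 1 symbol. Medians over classes of loci, here and below, leave out loci listed at 0 in 1 group, whose ratio is infinite. Among all tested loci these were 14076 at 0 in SNE and 127 at 0 in CPE. Set against the median of loci with 1 symbol, 64 LINC loci lay above and 24 below.

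**Figure D1:**
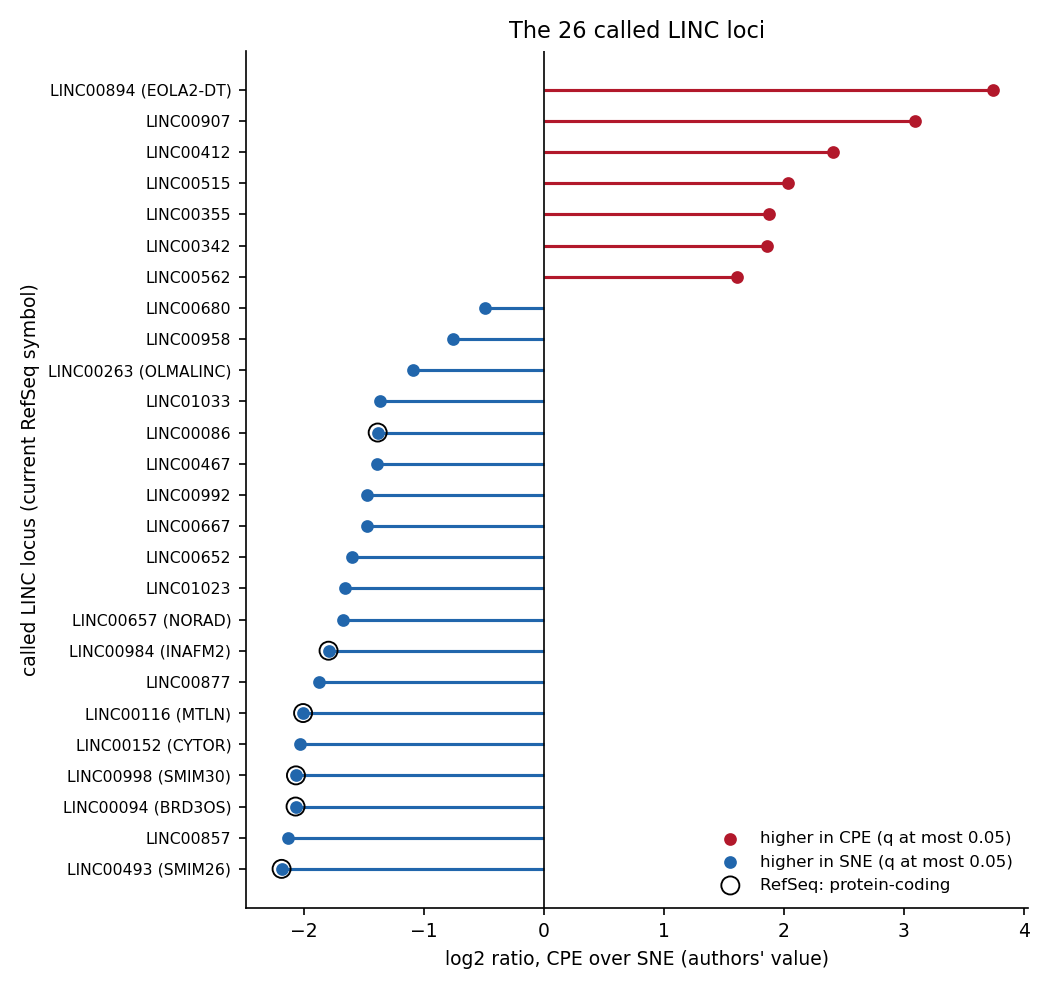
Log2 ratio of CPE over SNE from the authors' deposited table for the 26 called LINC loci, ordered by ratio, with 7 loci to the right of 0 and 19 to the left. Each point is 1 locus and has no error, because 1 value per group was deposited. Open circles mark loci that RefSeq lists as protein-coding, all of them to the left of 0.

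The other 445 LINC loci were not tested. Of these, 440 had too few reads, and 248 of the 440 were listed at 0 in both groups. The highest level among the 440 was 2.70 in CPE, at LINC01073, and 0.201 in SNE. A further 3 had low data, and 2 (LINC00115 and LINC00982) exceeded the data limit of the authors' program, so their zeros are failed estimates. The counts over 88 loci therefore describe those with enough reads, not the LINC genes at large.

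The 7 loci called towards CPE were low in SNE. They had FPKM of 0.526 to 3.47 in CPE and 0.0616 to 0.848 in SNE, and none reached 1 in both groups. Of these, 3 lie on chromosome 13, singled out after the calls were seen, which holds 13 of the 88 tested LINC loci, 9 with a ratio above 0 and 4 below. The promoters of 2 of them are shown with those of 2 loci higher in SNE, chosen as the non-coding called loci of highest mean FPKM with a promoter in the RefSeq table. Each runs from 250 bases before to 50 after the gene's start on GRCh38.p14, 5′ to 3′, with CG dinucleotides in capitals.

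LINC00515, chr21:25583175-25583474 on the minus strand: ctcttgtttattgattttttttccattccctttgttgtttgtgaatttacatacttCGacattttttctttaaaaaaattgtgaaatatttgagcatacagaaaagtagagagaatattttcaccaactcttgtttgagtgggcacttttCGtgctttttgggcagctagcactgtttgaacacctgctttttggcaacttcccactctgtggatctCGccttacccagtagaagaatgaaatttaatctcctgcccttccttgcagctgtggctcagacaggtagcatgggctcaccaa
LINC00355, chr13:64075962-64076261 on the minus strand: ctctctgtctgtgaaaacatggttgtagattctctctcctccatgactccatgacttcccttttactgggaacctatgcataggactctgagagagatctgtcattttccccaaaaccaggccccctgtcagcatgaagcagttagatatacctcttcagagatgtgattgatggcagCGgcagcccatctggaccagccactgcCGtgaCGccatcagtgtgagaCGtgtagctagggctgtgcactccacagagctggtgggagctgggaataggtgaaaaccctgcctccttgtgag
LINC00657 (NORAD), chr20:36050911-36051210 on the minus strand: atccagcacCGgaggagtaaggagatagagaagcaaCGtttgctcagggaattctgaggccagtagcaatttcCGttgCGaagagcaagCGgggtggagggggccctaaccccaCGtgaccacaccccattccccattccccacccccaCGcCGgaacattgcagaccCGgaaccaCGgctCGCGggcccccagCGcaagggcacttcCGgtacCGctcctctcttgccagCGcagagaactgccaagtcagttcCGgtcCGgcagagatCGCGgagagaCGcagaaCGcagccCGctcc
LINC00152 (CYTOR), chr2:87455177-87455476 on the plus strand: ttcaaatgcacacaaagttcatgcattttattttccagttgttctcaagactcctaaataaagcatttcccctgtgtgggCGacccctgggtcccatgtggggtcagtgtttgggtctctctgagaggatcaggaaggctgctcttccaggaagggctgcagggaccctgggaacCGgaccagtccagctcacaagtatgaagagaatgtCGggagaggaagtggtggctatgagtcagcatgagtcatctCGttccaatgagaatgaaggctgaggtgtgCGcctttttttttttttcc

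These windows hold 3, 4, 23 and 5 CG. They do not stand for their groups: the promoter of LINC00894, also called towards CPE, holds 31. Over 35116 RefSeq promoters of the same length the median was 14, with at most 5 in 33.7% and at least 20 in 41.2%. A promoter was found for only 64 of the 88 loci (72.7%), fewer than the share set for such a check, so a comparison of CG between the called groups is void and is not given.

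LINC00894, now EOLA2-DT, a transcript divergent from the neighbouring EOLA2 gene, had the largest ratio among called loci. Its FPKM was 2.10 in CPE and 0.157 in SNE (log2 ratio 3.74, q = 0.0423 in the authors' deposited table; hg19 region chrX:149097745-149392815). LINC00907 on chromosome 18, a gene of 532140 bases with 10 exons in GENCODE 29, had 0.526 in CPE and 0.0616 in SNE (3.09, q = 0.000706). Both lie far above the ratio of a typical named locus, but LINC00894 sits close to the q threshold.

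LINC00515, a single-exon locus of 557 bases on chromosome 21, was the most abundant of the 7 in CPE, at 3.47, against 0.848 in SNE (authors' deposited log2 ratio 2.03, q = 0.000706). LINC00342 on chromosome 2 had 2.52 in CPE and 0.694 in SNE (1.86, q = 0.000706). On chromosome 13, LINC00355 had 2.49 in CPE and 0.680 in SNE (1.87, q = 0.0125). The ratios of these 3 loci are close to each other. LINC00412, of 530 bases, had 1.73 in CPE and 0.325 in SNE (2.41, q = 0.0208). LINC00562, a single-exon locus of 2470 bases, had 1.21 in CPE and 0.395 in SNE (1.61, q = 0.000706).

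The 19 loci called towards SNE included several abundant RNAs. LINC00657, now NORAD, which binds Pumilio proteins in the cytoplasm and helps preserve genome stability, had 10.2 in CPE and 32.6 in SNE (authors' deposited log2 ratio -1.68, q = 0.000706; hg19 region chr20:34632113-34638888). The Pumilio motif TGTANATA, searched on the transcript strand only and counting overlaps, occurs 15 times in its 5339-base GENCODE 29 transcript. The motif was present in 18 of the 80 LINC transcripts found, the longest of each gene, with LINC00632, named for this count, next at 10. It was present in 7.08% of 14379 lincRNA transcripts. Lengths were not matched, and a longer transcript holds a motif more often, so these shares cannot be compared. Of those 14379, 2 hold at least 15. Stretches from across the transcript show the motif in capitals, 5′ to 3′.

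NORAD, transcript bases 750 to 779: tggaaggcctgTGTATATAatatgaaaaag
NORAD, transcript bases 2961 to 2990: caaccctactgTGTATATAgcggacaaact
NORAD, transcript bases 4588 to 4617: attagcctattTGTAAATAcctttgttata

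LINC00152, now CYTOR, a largely cytoplasmic RNA studied in tumours, had 4.63 in CPE and 18.9 in SNE (authors' deposited log2 ratio -2.03, q = 0.000706). It has a near-identical copy on the same chromosome, MIR4435-2HG, so its reads may be split or shared. LINC00857 had 0.185 in CPE and 0.813 in SNE (-2.14, q = 0.0138). LINC00877 had 0.287 in CPE and 1.05 in SNE (-1.87, q = 0.0295). LINC01023, a single-exon locus, had 1.13 in CPE and 3.56 in SNE (-1.66, q = 0.0267). The last 3 are well below NORAD and CYTOR in level, and each has a q above 0.01. LINC00467 had 2.82 in CPE and 7.37 in SNE (-1.39, q = 0.0151).

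A further 7 non-coding loci were called towards SNE, and are named after their values were seen. LINC00652, LINC00667, LINC00992 and LINC01033 had deposited log2 ratios of -1.60, -1.48, -1.47 and -1.37. LINC00263 (OLMALINC), LINC00958 and LINC00680 had -1.09, -0.76 and -0.49, and these 3 lie above 0 once ratios are centred on the median of loci with 1 symbol, as any ratio between -1.25 and 0 does.

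Microprotein genes leaned to SNE, as protein-coding loci at large did. RefSeq lists 9 LINC loci as protein-coding under a gene of their own, counting LINC00086 and LINC00087, which match the same pair of paralogs. Of the 9, 6 were higher in SNE, LINC00086 among them, and none higher in CPE, with a median ratio of -1.80. Protein-coding loci in the table had 52.4% higher in SNE and a median of -1.38. At a mean FPKM of 5 or more, where 4 of the 6 calls sit, that share was 63.3%. LINC00493, now SMIM26, which encodes a mitochondrial microprotein, had 20.4 in CPE and, as the most abundant LINC locus there, 93.1 in SNE (authors' deposited log2 ratio -2.19, q = 0.000706). LINC00998, now SMIM30, a membrane microprotein gene, had 8.83 in CPE and 37.0 in SNE (-2.07, q = 0.000706). LINC00116, now MTLN, whose product mitoregulin sits in the inner mitochondrial membrane, had 8.81 in CPE and 35.4 in SNE (-2.01, q = 0.000706). These 3 have much the same ratio, near that of CYTOR.

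LINC00094, now BRD3OS beside BRD3, had 1.73 in CPE and 7.28 in SNE (authors' deposited log2 ratio -2.07, q = 0.000706), and LINC00984, now INAFM2, had 6.21 in CPE and 21.6 in SNE (-1.80, q = 0.000706). LINC00086 and LINC00087 both match the paralogs SMIM10L2A and SMIM10L2B, so their reads cannot be assigned with certainty. LINC00086 had 0.246 in CPE and 0.643 in SNE (-1.39, q = 0.00760), and LINC00087 had 0.533 in CPE and 1.17 in SNE (-1.13, q = 0.382). LINC00634 (SMIM45) had 1.46 in CPE and 3.72 in SNE (-1.35, q = 0.0885), and LINC00176 (C20orf204), named after its value was seen, had 0.215 in CPE and 0.185 in SNE (0.22, q = 0.931). Neither is called. Of a list of 8 microprotein symbols 5 were tested, with 4 higher in SNE, 1 not called and a median ratio of -2.01. Over protein-coding loci 52.4% were higher in SNE.

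**Figure D2:**
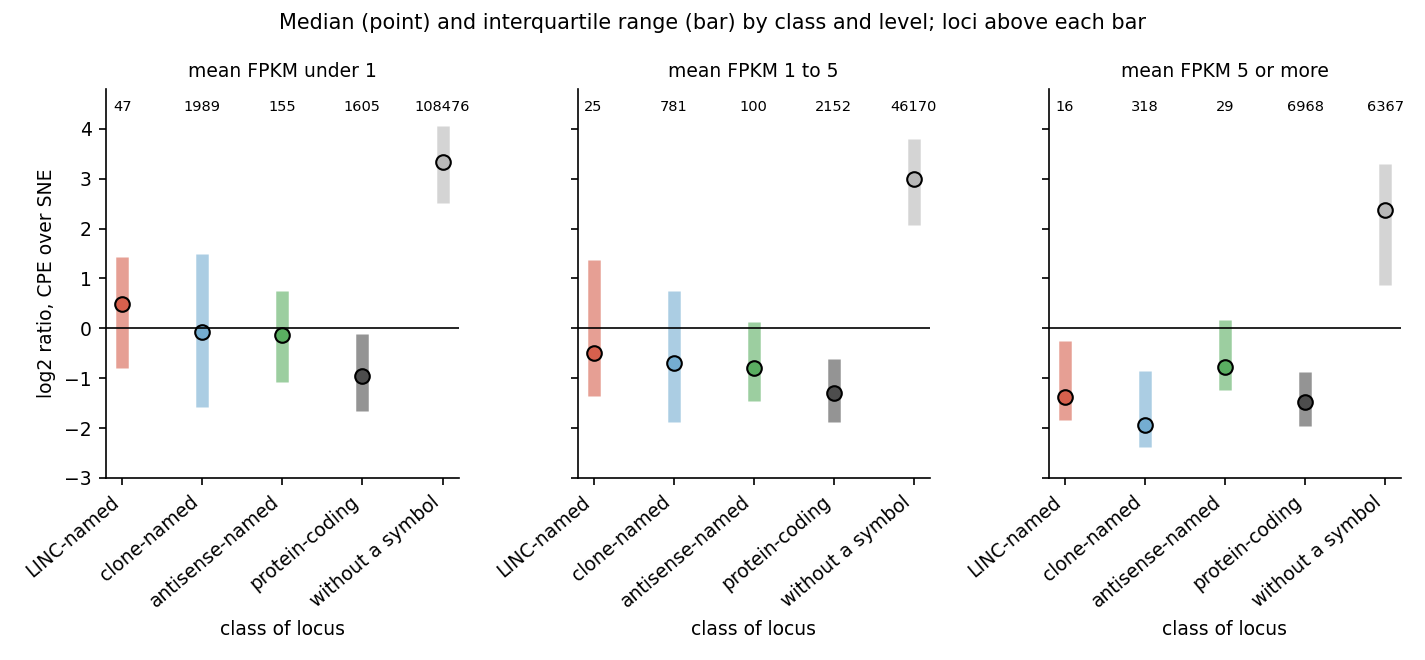
Median log2 ratio of CPE over SNE by mean FPKM of both groups, for LINC loci and for other classes of loci in the authors' deposited table. LINC loci stand at 0.49, -0.50 and -1.38 from the lowest to the highest bin, and protein-coding loci at -0.95, -1.30 and -1.48. The LINC loci include those that RefSeq matches to a protein-coding gene, without which the median of the highest bin was -0.62. Points are medians, bars are interquartile ranges, and the numbers above give the loci with a finite ratio.

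Without the 11 loci that RefSeq matches to a protein-coding gene, 77 LINC loci remained, of which 7 had calls towards CPE and 13 towards SNE. The 11 are the 9 above with LINC00444 and LINC00846, named for this match. RefSeq gives these symbols only as older names of SUCLA2 and of TCP10L and CFAP298-TCP10L. The 77 had a median ratio of 0.26 (interquartile range -1.09 to 1.39), with 9.09% higher in CPE and 16.9% higher in SNE. Over 3286 tested loci with clone-based names the median was -0.44, and 3.53% were higher in CPE and 12.4% higher in SNE. Over 287 loci named as antisense RNAs it was -0.46, with 3.48% and 9.06%. Protein-coding loci were not removed from the clone-named and antisense-named classes, and no test of LINC loci against them was run.

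The most abundant LINC RNAs of the chromatin pellet were not called. LINC00910 had the highest CPE level of all 88, at 60.3, against 25.8 in SNE (authors' deposited log2 ratio 1.22, q = 0.0554). LINC00674 had 38.7 in CPE and 50.7 in SNE (-0.39, q = 0.738). LINC00662 had 23.99 in CPE and 21.6 in SNE (0.15, q = 0.689). LINC00910 thus lay just above the q threshold, and the other 2 had near-equal levels. LINC01021 (PURPL, an RNA induced by p53), named after its value was seen, had 10.6 in CPE and 7.10 in SNE (0.58, q = 0.470).

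**Figure D3:**
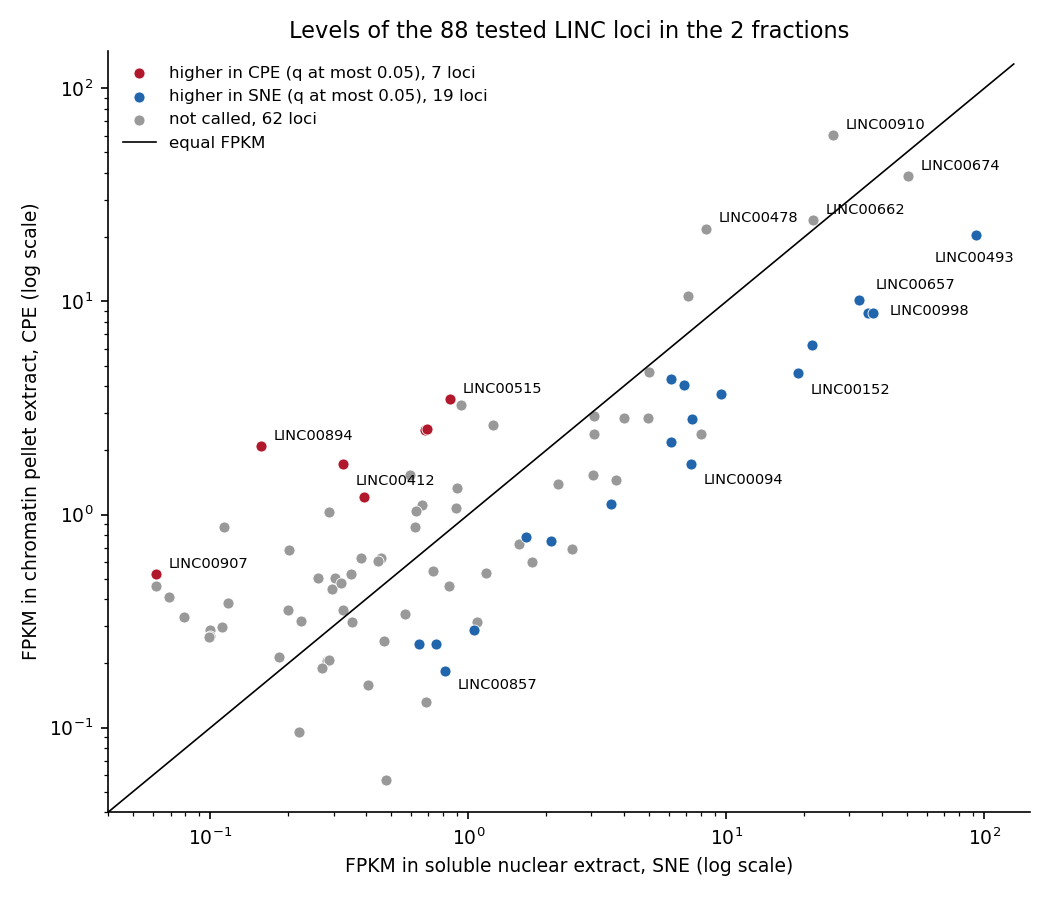
FPKM in CPE against FPKM in SNE, both on log axes, for the 88 tested LINC loci from the authors' deposited table; the line marks equal levels. Loci called towards CPE reach at most 3.47 in CPE. Points above 5 in mean FPKM are either called towards SNE or not called, and some of those not called lie above the line.

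Hosts of small RNAs were not called. LINC00478, now MIR99AHG, had 22.0 in CPE and 8.36 in SNE (authors' deposited log2 ratio 1.39, q = 0.493), in a region of 139 loci on chromosome 21. Its introns hold a cluster of 3 microRNAs, whose own rows were not tested. LINC00461 (MIR9-2HG) on chromosome 5 is the host of miR-9-2 and had 0.874 in CPE and 0.622 in SNE (0.49, q = 0.604). LINC00669 (MIR924HG) had 2.63 in CPE and 1.24 in SNE (1.08, q = 0.493). LINC00669 is named for its large uncalled ratio and was not among the listed hosts. The mature microRNAs carried by the first 2 hosts are given from RefSeq (GRCh38.p14), 5′ to 3′ with the seed, bases 2 to 8, in capitals, since they are what these transcripts are known for. The 4 seeds differ from one another.

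hsa-miR-99a-5p: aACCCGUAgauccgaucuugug
hsa-let-7c-5p: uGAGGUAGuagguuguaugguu
hsa-miR-125b-5p: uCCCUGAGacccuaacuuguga
hsa-miR-9-5p: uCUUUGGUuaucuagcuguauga

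A list of LINC RNAs with published functions gave 3 calls of 7 tested, all higher in SNE (NORAD, CYTOR and LINC00467), with a median of -1.11. The list is not complete and was written with earlier results of these data known. Over loci with 1 symbol 39.1% were called towards SNE and the median was -1.25, so this share is near that of named loci at large. LINC00511, reported to bind the histone methyltransferase EZH2, had 0.728 in CPE and 1.57 in SNE (authors' deposited log2 ratio -1.11, q = 0.395). LINC00665 had 2.82 in CPE and 4.004 in SNE (-0.50, q = 0.203). LINC00460 had 0.256 in CPE and 0.470 in SNE (-0.88, q = 0.354). LINC00312 was the one uncalled member with more in CPE, at 0.505 in CPE and 0.261 in SNE (0.95, q = 0.502). The list held 18 symbols, of which 11 had a row. Of 4 listed symbols that are divergent partners of developmental genes, none was tested.

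The largest ratios without a call occurred at low levels. LINC00310 (2.96), LINC00533 (2.91) and LINC00640 (2.57) leaned to CPE, and LINC00449 (-3.08) and LINC01003 (-2.37) to SNE, in the authors' deposited table, and all are named after their values were seen. None reached an FPKM of 1 in either group. Among loci with at least 1 in both groups, LINC00909 (ZNF407-AS1) had 2.40 in CPE and 7.95 in SNE (-1.73, q = 0.493), and LINC01024 (MALINC1) had 1.54 in CPE and 3.04 in SNE (-0.98, q = 0.498).

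The ratio went with level. A mean FPKM under 1 in the authors' deposited table was seen at 47 LINC loci, with 2 calls towards CPE, 4 towards SNE and a median ratio of 0.49. Between 1 and 5 there were 25, with 5 and 5 and a median of -0.50. At 5 or more there were 16, with 0 and 10 (62.5% towards SNE) and a median of -1.38. Of these 16, the 4 that RefSeq matches to a protein-coding gene were all called towards SNE, with a median of -2.04. The other 12 had 6 calls towards SNE (50%) and a median of -0.62. Over all loci with 1 symbol the shares towards SNE in the 3 bins were 13.7%, 29.5% and 58.8%, so calls towards SNE grew with level there too. Shares towards CPE were 2.44%, 2.37% and 0.975% over loci with 1 symbol, and 4.26%, 20% and 0% over LINC loci. Across the 88 loci Spearman's rho between ratio and mean FPKM was -0.34, and -0.26 across the 77 without the protein-coding ones. These are descriptions across loci that share the same libraries. Protein-coding loci had medians of -0.95, -1.30 and -1.48 in the same bins. Gene length and exon number showed little relation, with rho 0.09 and 0.11 across the 80 loci found in GENCODE 29. The median gene length was 9098 bases in loci higher in CPE, 13688 in those higher in SNE and 18652 in those not called. The nuclear-retention motif core CCTCCC preceded by A or G was counted in the longest transcript of each gene. It occurred in 3 of 7 transcripts higher in CPE, 10 of 18 towards SNE and 26 of 55 without a call. The median count per kilobase was 0, 0.34 and 0 in these groups, and its rho with the ratio was 0.05. The motif occurred in 27.1% of lincRNA transcripts, a share that cannot be compared because lengths were not matched.

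Unnamed transcripts around LINC loci had higher ratios, as they had over the whole table, where the median was 3.21 for loci without a symbol and -1.25 for loci with 1 symbol. The 88 regions also hold 1013 tested loci without a symbol, of which 105 (10.4%) were higher in CPE and 5 had more in SNE by the authors' deposited table, close to the 9.45% higher in CPE over all loci without a symbol. Their median ratio was 3.56 over the 920 with a finite ratio. The medians of single regions that follow keep the infinite ratios. In 39 regions with at least 3 such loci, the LINC ratio was below the median of the unnamed loci in 36. The exceptions were LINC00598, LINC00324 and LINC00910. All 39 region medians were above 0, including those of the 6 LINC loci higher in SNE: around CYTOR, with a ratio of -2.03, the 16 unnamed loci had a median of 3.66.

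**Figure D4:**
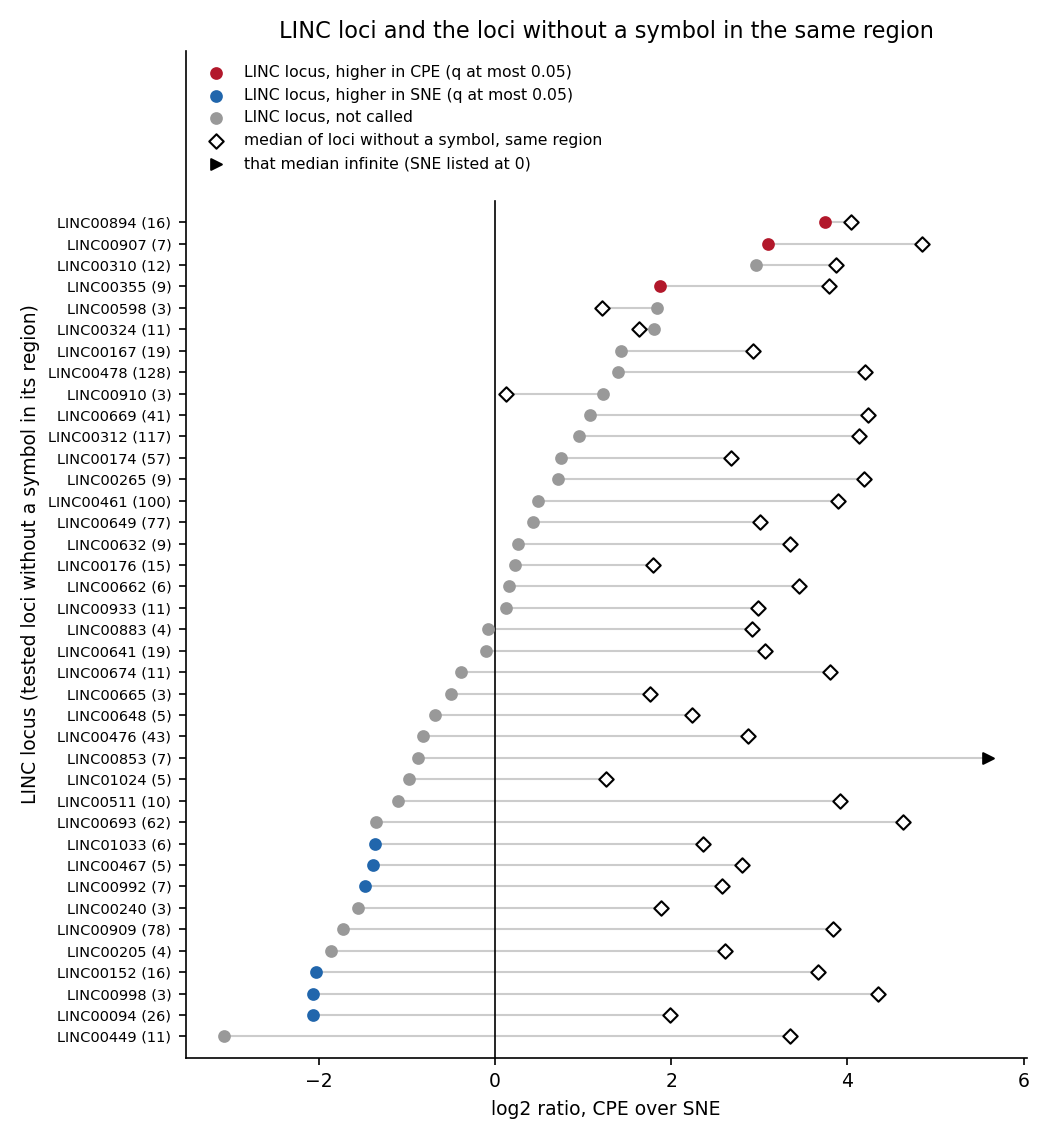
Log2 ratio of CPE over SNE of 39 LINC loci (filled circles) and the median of the tested loci without a symbol in the same region (open diamonds; a triangle marks an infinite median), from the authors' deposited table. The circle is left of the diamond in 36 of 39 regions, and the number of unnamed loci stands in brackets.

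Protein-coding genes of the same regions were compared where the gene itself had an FPKM of at least 1 in both groups, with no minimum for the LINC locus. The 18 such neighbours of 14 LINC loci had a median ratio of -1.03. The LINC ratio was above that of every such neighbour at 11 of the 14 LINC loci, and LINC00649 alone has 4 of the neighbours. Of the neighbours 5 were higher in SNE and none higher in CPE. Over all protein-coding loci, with no FPKM minimum, 52.4% were higher in SNE and 0.727% higher in CPE, with a median of -1.38. The median of all LINC loci was -0.14, so a higher LINC ratio was also seen over the whole table. HNRNPC, a splicing-related RNA-binding protein gene, had 147.8 in CPE and 500.4 in SNE (authors' deposited log2 ratio -1.76, q = 0.00466), beside LINC00641 with 4.66 in CPE and 5.01 in SNE (-0.10, q = 0.887). CXorf40B had 1.86 in CPE and 6.58 in SNE (-1.82, q = 0.0629), beside LINC00894. The exceptions were TM9SF2 beside LINC00449, BRD3 beside LINC00094 and ZNF407 beside LINC00909. These pairs were named after their values were seen, and no difference between neighbours was tested.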

How the data were processed

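RNA from HEK293 nuclei was sequenced by the submitters and processed with TopHat2 and Cuffdiff on hg19, per the submitters' processing notes. Versions, settings, annotation and scaling are not given in the sources used here. Per the file headers, the deposited gene table holds 1 FPKM per group, which the authors computed over 3 CPE and 3 SNE libraries, and the authors' log2 ratio, test score (not used), p-value and q-value. It holds no values per sample, so depth is unknown and no test across replicates was run. Its ratio matched the FPKM values within 0.01 at all 88 loci. The second deposited table, of isoforms, was not used, because its values did not match the identifiers beside them. FPKM of short transcripts depends on fragment-length assumptions, and reads of near-identical copies may be split. Region starts were counted from 1.

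Names came from RefSeq (88 matched, 31 by an older symbol) and structures from GENCODE 29 (80 matched, 90.9%), with Python 3.11.15, pandas 2.3.3 and scipy 1.17.1. Only the counting of calls was tested on simulated data. Named loci were the 10 of highest mean FPKM, called loci higher in CPE (at most 12), the 10 called loci of smallest ratio, tested members of 4 lists, and the 3 uncalled loci of largest and of smallest ratio with FPKM of at least 1 in both groups. Loci outside this rule are marked as named after their values were seen, or stand as exceptions to a count. Members and lists were chosen with earlier results of these data known. Alternatives were a stricter q, FPKM minimums, a minimum ratio, pseudocounts, centring, and adding or leaving out loci.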

Additional observations from a re-analysis of the deposited data

How the results depend on the processing

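No paired analysis was possible because 1 value per group was deposited, and for the same reason no replicate could be left out. With q of at most 0.01, the authors' deposited table gave 4 LINC loci with more in CPE and 12 with more in SNE, in place of 7 and 19. An FPKM minimum of 1 in both groups left 0 calls towards CPE and 13 towards SNE, with a median ratio of -0.90 in place of -0.14. Centring on loci with 1 symbol, a shift of -1.25, turned the median to 1.11. Leaving out the RefSeq protein-coding loci, chosen after seeing the data, turned it to 0.26, and the cause was not tested. Under the other alternatives the count higher in CPE was 6 to 9, that higher in SNE 16 to 22, and the median -0.68 to -0.08. Leaving out the protein-coding loci gave 7 towards CPE and 13 towards SNE. Of the 26 called loci 10 had q above 0.01. Depth was unknown, so what a count of 0 allows cannot be given.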

Other observations

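Some LINC symbols stand only in loci that merge several genes, whose reads cannot be assigned to the LINC RNA. The authors' deposited table holds 31 such loci, of which 20 were tested, with 2 called towards CPE, 3 towards SNE and a median log2 ratio of -0.59. Over all tested loci 8.73% were called towards CPE and 4.30% towards SNE, and over loci with 1 symbol 1.71% and 39.1%. The locus of LINC00888 and SNORA63, a small nucleolar RNA, had 328.2 in CPE and 22.5 in SNE (3.86, q = 0.00251). The locus of LINC01011 and NQO2, a quinone reductase gene, had 4.84 in CPE and 20.6 in SNE (-2.09). The locus of LINC00266-1 and PCMTD2 had 6.08 in CPE and 20.6 in SNE (-1.76). The locus of LINC00338, a small RNA host, and SEC14L1 had 1476 in CPE and 2828 in SNE (-0.94, q = 0.116) and was not called.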
